A study of Mus musculus with 41 samples.

Results

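The comparison described here set the gamma-secretase inhibitor RO4929097 against its vehicle DMSO in MEEC, a wild-type line of mouse embryonic endocardial cells, grown in contact with OP9-GFP cells. OP9 is a mouse bone marrow stromal line, and the GFP-expressing version carries no added Notch ligand. The comparison was defined by its libraries, 8 of the 41 in the series: 4 from MEEC that had been exposed to 20 µM RO4929097 for 24 h and 4 from MEEC that had been exposed to DMSO for 24 h, each seeded at 50% confluency over OP9-GFP at 90% confluence and harvested after 6 h. All 12984 genes of the deposited table were tested, of which 12964 matched the mouse annotation and 20 did not. The remaining libraries come from MEEC over OP9 cells that express Jag1, Dll4 or GFP (18 libraries), and from MEEC on wells coated with recombinant DLL4 (rDLL4), recombinant JAG1 (rJAG1) or no ligand (15 libraries). The labels do not say whether the inhibitor stayed in the medium during co-culture, or whether MEEC were separated from OP9-GFP before RNA was extracted. Both cell types are mouse, so reads of either count for the same gene. All MEEC groups come from 1 line, and the labels do not state separate cultures for replicates, so p-values measure the spread between these libraries, which may be technical.

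Gamma-secretase is a membrane protease complex of presenilin, nicastrin, Aph1 and Pen-2. When a ligand on a neighbouring cell pulls on a Notch receptor, an ADAM protease sheds the receptor's outer part and gamma-secretase then releases its intracellular domain, which enters the nucleus and, with Rbpj and Mastermind proteins, activates genes of the Hes and Hey repressor families. In the endocardium, the endothelium that lines the heart chambers, Notch is known for its part in the transition of endocardial cells to the mesenchyme of the valves and in trabeculation. Gamma-secretase also cuts many other membrane proteins, so an inhibitor acts on more than Notch.

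The 4 RO4929097 libraries held 21.4 to 24.3 M reads (M, mega) and the 4 DMSO libraries held 19.4 to 25.2 M. A count of 0 allows up to 3 reads at 95% confidence, which is a signal of 0.119 to 0.158 depending on the library and covers counting error only. Values below are the authors' normalized signal, which is scaled for library size and not for gene length, so levels are compared within a gene and not between genes. Of 16 OP9 stromal and preadipocyte markers 6 were measured, and none passed the test. Their summed signal was 1726, 1001, 1049 and 813 in RO4929097 libraries 1 to 4, against 1735, 869, 959.5 and 836 in DMSO libraries 1 to 4. Library 1 of both groups stood apart in 3 of the 6. Cxcl12, a stromal chemokine, was at 1034 with RO4929097 and 931 with DMSO in library 1, against 176 to 287 in the other 6 libraries. The PDGF receptor gene Pdgfra was at 33.7 with RO4929097 and 32.9 with DMSO, against 12.9 to 17.4, and the adipocyte transcription factor gene Cebpa at 7.63 with RO4929097 and 8.10 with DMSO, against 3.17 to 4.80. Lpl, Kitl and Dcn did not follow this pattern. Endothelial markers were partly measured (6 of 13: Tek, Kdr, Esam, Egfl7, Npr3 and Nfatc1), with a summed signal of 51.3 to 61.6 with RO4929097 and 52.4 to 60.4 with DMSO. The classical endothelial genes Pecam1, Cdh5, Tie1, Emcn, Erg, Cldn5 and Vwf had no value among the genes tested. The labelled cell type could therefore be checked only on the markers named. Cardiomyocyte markers (2 of 12 measured, 29.2 to 41.6 with RO4929097 and 31.8 to 42.3 with DMSO) and leukocyte and erythroid markers (3 of 16 measured, 9.64 to 11.8 with RO4929097 and 9.12 to 11.9 with DMSO) had no member that passed. In such bulk libraries fewer cells of a type and less RNA per cell cannot be told apart.

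With RO4929097, 270 genes fell and 157 rose at an adjusted p under 0.05. This threshold is used throughout, with p-values from limma, paired by replicate number and adjusted over all genes. These are 2.08% and 1.21% of the genes tested, 3.29% together, and the changes were mostly modest. The median log2 fold change (RO4929097 minus DMSO, on log2(signal + 1)) was -0.47 among lowered genes and 0.36 among raised ones, while that of all genes was 0.00. Only 19 lowered and 2 raised genes reached a 2-fold change on this scale, which understates changes of low genes. By the ratio of mean signals, RO4929097 over DMSO, Dlk1 was at 2.12 and Hey1 at 0.462. Neither reached 2-fold on the log2(signal + 1) scale (0.99 and -0.70). All 157 raised genes moved the same way in each of the 4 pairs, as did 269 of the 270 lowered genes (of all genes, 11.9% were higher and 12.1% lower in every pair, called or not). In 184 lowered genes and 103 raised genes the libraries of the groups did not overlap. Over all genes 3.31% had every RO4929097 library below and 3.12% every one above. Genes were called on these same pairs and libraries. The counts of pairs and of overlap therefore describe the called genes and are no further support for them. The counts changed with the pairing and when 1 pair was left out, which also leaves fewer pairs to test. Without the replicate number as a block 118 genes passed (29 higher, 89 lower, or 0.223% and 0.685%), all of them among the 427. Leaving out pair 2, 3 or 4 gave 167, 124 or 276 of the 12984 genes, and leaving out pair 1 gave 363. Counts within gene lists below are to be read beside the all-gene share of the same fit.

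**Figure D1:**
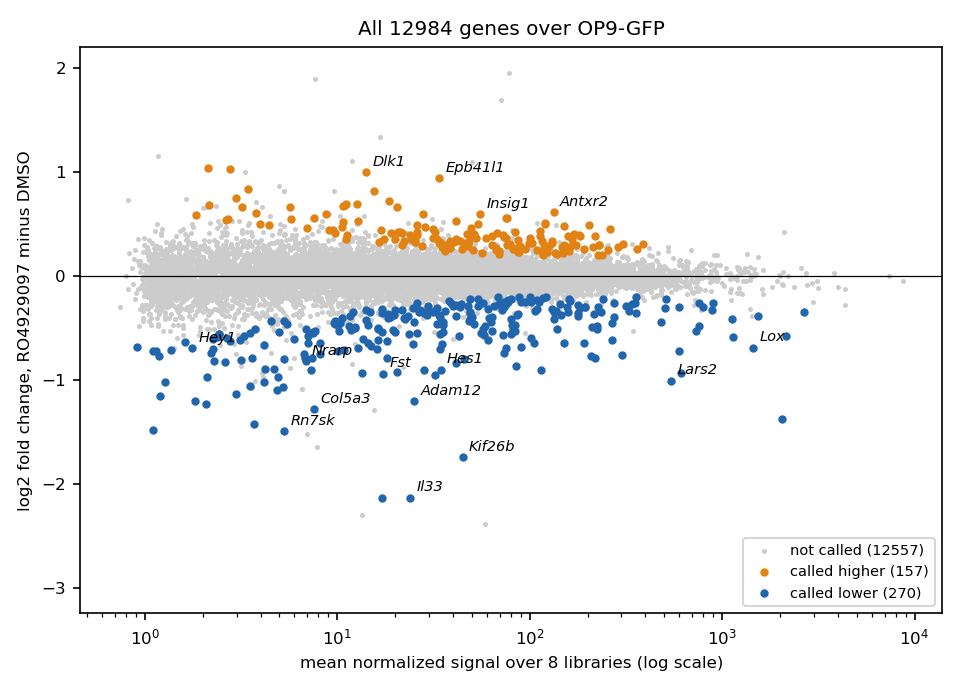
Mean normalized signal over the 8 libraries (x axis, log scale) against log2 fold change, RO4929097 minus DMSO (y axis), for all 12984 genes over OP9-GFP. Orange points are the 157 genes called higher, blue points the 270 called lower and grey points the others; Il33 and Kif26b lie lowest among the labelled genes and Dlk1 highest.

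Every measured Notch target fell. Of the 10 genes on this list 5 had values, all 5 were called lower, and in each of them the 4 RO4929097 libraries lay below the 4 DMSO libraries. The other 5 (Hes5, Hes7, Heyl, Dtx1 and Notch3) had no value among the genes tested. Hes1, a transcriptional repressor and the classical Notch target, had a signal of 19.7, 22.8, 25.3 and 27.4 with RO4929097, against 43.5, 51.3, 41.7 and 44.5 with DMSO. The groups were well apart (log2 fold change -0.90 ± 0.09 SE, adjusted p = 0.00079). Nrarp, a small ankyrin-repeat protein that feeds back to restrain Notch signalling, had 5.30, 4.07, 4.56 and 4.85 with RO4929097, against 9.53, 10.1, 7.96 and 8.62 with DMSO (-0.82 ± 0.10 SE, adjusted p = 0.0034). Its highest RO4929097 library was below its lowest DMSO library. Hey2, a repressor related to Hes1, had 5.70, 6.08, 5.91 and 6.81 with RO4929097, against 8.84, 10.5, 10.9 and 10.4 with DMSO (-0.64 ± 0.09 SE, adjusted p = 0.0045). Hey1, its close relative, had 0.738, 1.00, 1.37 and 1.35 with RO4929097, against 2.75, 2.55, 2.13 and 2.23 with DMSO (-0.70 ± 0.15 SE, adjusted p = 0.037). Jag1, which encodes a Notch ligand and is itself raised by Notch in several tissues, had 25.8, 29.9, 25.2 and 29.1 with RO4929097, against 36.9, 37.9, 40.7 and 37.4 with DMSO (-0.46 ± 0.07 SE, adjusted p = 0.0074). For Hey2 and Jag1 all values with RO4929097 fell in a narrow band below the DMSO band. Hes1 and Nrarp kept their call whichever pair was left out. Hey2 and Jag1 lost it without pair 3 (adjusted p = 0.055 and 0.059), and Hey1 lost it without any 1 of the pairs (adjusted p between 0.067 and 0.17). All 5 were also called without the replicate block.

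**Figure D2:**
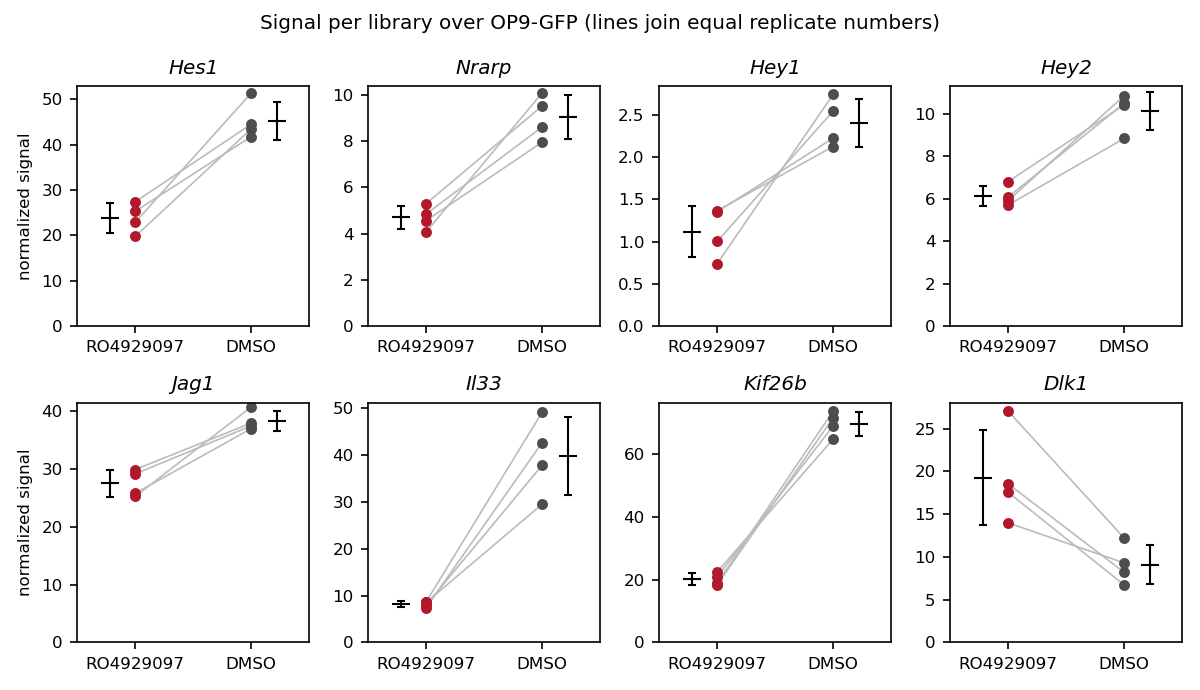
Normalized signal (y axis, starting at 0) of 8 genes in each library over OP9-GFP, RO4929097 in red at the left and DMSO in grey at the right; lines join libraries with equal replicate numbers and black marks give mean ± SD (n = 4). Hes1, Nrarp, Hey1, Hey2, Jag1, Il33 and Kif26b are lower with RO4929097 in every pair, and Dlk1 is higher in every pair.

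The positions of these genes in build GRCm38 are chromosome 16, 30064384 to 30067796, plus strand for Hes1, chromosome 2, 25180758 to 25183339, plus strand for Nrarp, chromosome 3, 8663359 to 8667256, minus strand for Hey1, chromosome 10, 30832359 to 30842801, minus strand for Hey2, and chromosome 2, 137081456 to 137116644, minus strand for Jag1. Promoter sequence, taken as the 250 bases before the RefSeq start in build GRCm38.p6, was available for 3 of the 5, and Hes1 and Hey1 are named only. It is shown for these targets, together with Il33, which among coding genes with a mean signal of at least 5 had the lowest log2 fold change on the log2(signal + 1) scale, because Rbpj binds DNA at a core that reads TGGGAA on either strand. Of the annotated starts of Il33 the second is printed, since its window holds a match. Matches on either strand are in capitals, and each sequence is written 5′ to 3′ along the gene.
Hey2 (chr10:30842784-30843033, minus strand): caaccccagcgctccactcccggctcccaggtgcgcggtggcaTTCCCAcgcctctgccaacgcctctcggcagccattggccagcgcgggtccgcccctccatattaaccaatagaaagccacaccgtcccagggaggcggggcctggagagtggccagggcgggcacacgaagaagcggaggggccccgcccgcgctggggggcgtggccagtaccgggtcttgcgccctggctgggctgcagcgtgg
Nrarp (chr2:25180508-25180757, plus strand): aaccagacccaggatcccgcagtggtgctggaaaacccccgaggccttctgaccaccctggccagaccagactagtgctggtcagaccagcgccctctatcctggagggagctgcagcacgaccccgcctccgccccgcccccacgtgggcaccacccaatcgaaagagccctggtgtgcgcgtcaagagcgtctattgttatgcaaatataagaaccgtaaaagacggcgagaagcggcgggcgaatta
Jag1 (chr2:137116521-137116770, minus strand): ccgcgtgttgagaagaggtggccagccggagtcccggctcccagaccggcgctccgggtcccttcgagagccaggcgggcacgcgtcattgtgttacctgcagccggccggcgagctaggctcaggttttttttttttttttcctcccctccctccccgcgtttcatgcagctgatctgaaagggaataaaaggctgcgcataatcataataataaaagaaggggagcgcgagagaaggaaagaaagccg
Il33, second annotated start (chr19:29945540-29945789, plus strand): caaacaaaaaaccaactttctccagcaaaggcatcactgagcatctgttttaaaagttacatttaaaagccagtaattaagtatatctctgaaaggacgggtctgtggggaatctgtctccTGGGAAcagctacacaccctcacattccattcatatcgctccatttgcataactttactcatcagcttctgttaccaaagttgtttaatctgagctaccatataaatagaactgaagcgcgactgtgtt
The Hey2 window holds 1 match, whose last base lies 202 bases before the start, and the Il33 window holds 1 match, 124 bases before its start. No match stands in the windows of Nrarp, Jag1, the first start of Il33 or Kif26b, which had the next lowest log2 fold change among those coding genes, which says only that these letters are not in these bases. The core was no more frequent before lowered genes than elsewhere: it was in 46 of 227 promoters of the 180 lowered genes with a sequence (20.3%), in 20.3% of 12289 promoters of genes tested and in 21.6% of all 32851 promoters.

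Among receptors and ligands 6 of 11 genes were measured. Besides Jag1, which fell, 1 rose: Dlk1, which encodes a membrane protein of the Delta-like family that lacks the receptor-binding DSL domain, had 14.0, 18.5, 27.0 and 17.6 with RO4929097, against 9.30, 8.20, 12.2 and 6.73 with DMSO (0.99 ± 0.11 SE, adjusted p = 0.002). Each RO4929097 library was above every DMSO library. Transcripts of the receptors were not called: Notch1 had 8.61, 8.51, 6.74 and 9.52 with RO4929097, against 9.72, 10.1, 9.01 and 9.47 with DMSO (-0.19 ± 0.09 SE, adjusted p = 0.36) and Notch2 had 156, 149, 140.1 and 162 with RO4929097, against 159, 154, 159 and 169 with DMSO (-0.08 ± 0.05 SE, adjusted p = 0.45). Both groups overlapped in each. Jag2, a second Jagged ligand, differed by 0.12 ± 0.11 SE, adjusted p = 0.63 and Dlk2, a relative of Dlk1, by 0.14 ± 0.13 SE, adjusted p = 0.66. Notch3, Notch4, Dll1, Dll3 and Dll4 had no value among the genes tested.

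Among transcripts for Notch cleavage 1 was called, to be read beside the 1.21% of all genes called higher. Of 10 genes for Notch cleavage and gamma-secretase, Psen2, which encodes presenilin 2, a catalytic subunit, rose, at 30.3, 30.5, 41.3 and 31.8 with RO4929097, against 23.0, 21.6, 27.2 and 23.7 with DMSO (0.47 ± 0.06 SE, adjusted p = 0.0037). Its call was lost without the block (adjusted p = 0.09). Ncstn (nicastrin) differed by -0.02 (adjusted p = 0.91), Psenen (Pen-2) by 0.12 (0.41) and the shedding protease gene Adam10 by -0.10 (0.44). Of 21 measured genes for the nuclear complex and modulators 1 rose: Dtx4, a Deltex-family ubiquitin ligase gene (0.39 ± 0.08 SE, adjusted p = 0.033), whose call was lost whichever pair was left out (adjusted p between 0.067 and 0.18) and without the block (0.39). This count of 1 in 21 is to be read beside the 1.21% of all genes that were called higher. Rbpj differed by 0.19 (adjusted p = 0.093). Of 19 genes that encode other gamma-secretase substrates 2 fell. Flt1, which encodes a VEGF receptor, had 2.17, 2.54, 1.97 and 2.69 with RO4929097, against 4.27, 7.17, 4.18 and 3.89 with DMSO (-0.79 ± 0.14 SE, adjusted p = 0.015), and Aplp1, a relative of the amyloid precursor gene, had 34.0, 34.6, 41.5 and 40.0 with RO4929097, against 47.1, 42.7, 46.5 and 46.6 with DMSO (-0.28 ± 0.06 SE, adjusted p = 0.04). Leaving out pair 2 or 3 ended the call of Flt1 (adjusted p = 0.082 and 0.1), leaving out any pair ended that of Aplp1 (0.088 to 0.17), and both were lost without the block (0.063 and 0.15).

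Beyond the Notch targets, the largest falls among genes with a mean signal of at least 5 included cytokine, motor, matrix and scaffold genes. Il33, an alarmin of the interleukin-1 family (chromosome 19, 29925114 to 29960718, plus strand), had 8.70, 8.55, 7.99 and 7.43 with RO4929097, against 49.2, 29.5, 37.9 and 42.7 with DMSO, and fell by 2.13 on the log2 scale (SE 0.11, adjusted p = 5.7e-05). Kif26b, a kinesin family gene (chromosome 1, 178529125 to 178939200, plus strand), had 18.3, 22.4, 18.9 and 20.9 with RO4929097, against 71.5, 64.7, 73.6 and 68.9 with DMSO (-1.74 ± 0.08 SE, adjusted p = 2.1e-05). In both genes the RO4929097 libraries were close to each other and far below DMSO. Col5a3, a chain of type V collagen, had 2.21, 4.97, 4.19 and 4.89 with RO4929097, against 9.30, 13.2, 10.3 and 11.5 with DMSO (-1.28 ± 0.12 SE, adjusted p = 0.0006). Adam12, a membrane metalloproteinase, had 13.7, 13.0, 17.3 and 14.8 with RO4929097, against 37.5, 27.5, 40.8 and 36.2 with DMSO (-1.21 ± 0.07 SE, adjusted p = 5.7e-05). Fst encodes follistatin, which binds and neutralises activins, and had 13.0, 9.71, 13.4 and 10.1 with RO4929097, against 29.5, 20.9, 22.9 and 19.4 with DMSO (-0.94 ± 0.08 SE, adjusted p = 0.00051). These groups did not overlap either. Akap12, a scaffold that anchors protein kinases, had 353, 427, 404 and 503 with RO4929097, against 708, 742, 877 and 887 with DMSO (-0.93 ± 0.06 SE, adjusted p = 0.00013). Rap1gap2, a GTPase-activating protein for Rap1, changed by -1.07 ± 0.11 SE, adjusted p = 0.00098, the membrane skeleton adaptor Ank1 by -0.95 ± 0.06 SE, adjusted p = 6.2e-05 and the desmosomal plaque gene Pkp1 by -0.93 ± 0.09 SE, adjusted p = 0.00092. All of these coding genes were called without the block and whichever pair was left out.

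With predicted genes left out, the other 3 of the 12 lowest log2 fold changes among called genes at that mean signal were those of Lars2, CT010467.1 and Rn7sk, and CT010467.1 and Rn7sk are non-coding. CT010467.1 is annotated as ribosomal RNA, Rn7sk encodes the 7SK RNA that restrains transcription elongation, and Lars2 encodes the mitochondrial leucyl-tRNA synthetase. CT010467.1 had 0.872, 0.192, 18.9 and 1.98 with RO4929097, against 28.2, 1.17, 75.8 and 9.16 with DMSO (-2.13 ± 0.38 SE, adjusted p = 0.018), with overlapping groups, and lost its call without pair 3 (adjusted p = 0.12). Rn7sk had 1.72, 1.34, 2.06 and 2.94 with RO4929097, against 4.87, 3.30, 10.6 and 15.7 with DMSO (-1.50 ± 0.19 SE, adjusted p = 0.0037) and lost its call without pair 3 (0.051). Lars2 had 333, 266, 373 and 446 with RO4929097, against 582, 548, 1132 and 672 with DMSO (-1.01 ± 0.13 SE, adjusted p = 0.0037). Gm42418, a predicted gene that meets the same limits and is named here after its values were seen, had 1349.5, 722, 909.6 and 1366 with RO4929097, against 1890.5, 1780.0, 5118 and 3223 with DMSO (log2 fold change -1.38, adjusted p = 0.016). All 4 were lower in every pair, and DMSO library 3 held the highest value of CT010467.1, Lars2 and Gm42418. None of CT010467.1, Rn7sk and Lars2 was called without the block (adjusted p = 0.54, 0.11 and 0.069). Under the same inhibitor on rDLL4 and rJAG1 none of the 4 was called (adjusted p between 0.072 and 0.97). These RNAs moved with the groups over OP9-GFP, and their part in the other results was not tested. The list for RNA quality and stress (8 of 8 measured, Malat1 and Neat1 among them) had no gene called, with a summed signal of 2244 to 3171 with RO4929097 and 2371 to 3235 with DMSO.

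Among genes that rose, Epb41l1, a membrane skeleton gene of the band 4.1 family, had 57.0, 38.6, 43.3 and 40.0 with RO4929097, against 31.4, 19.2, 21.9 and 19.6 with DMSO (0.94 ± 0.06 SE, adjusted p = 5.7e-05). Library 1 of each group was the highest of its group. Antxr2, a receptor for matrix proteins that anthrax toxin also uses, had 132, 125, 170.2 and 222 with RO4929097, against 95.5, 92.5, 105 and 124 with DMSO (0.61 ± 0.07 SE, adjusted p = 0.0018). Sh2d4a, an SH2-domain adaptor gene, had 27.2, 28.3, 26.2 and 19.0 with RO4929097, against 16.7, 16.8, 15.7 and 12.9 with DMSO (0.66 ± 0.07 SE, adjusted p = 0.001). In these 3 genes the groups did not overlap. Atoh8, a bHLH transcription factor gene, changed by 0.72 ± 0.07 SE, adjusted p = 0.00088, also with no overlap. The membrane-associated Plekha6 changed by 0.82 ± 0.08 SE, adjusted p = 0.00076 and the protocadherin Pcdh10 by 0.69 ± 0.10 SE, adjusted p = 0.005, with libraries that overlapped while every pair rose. Dhrs3, which encodes an enzyme that reduces retinaldehyde to retinol, changed by 0.69 ± 0.11 SE, adjusted p = 0.0096, the intermediate filament gene Prph by 0.59 ± 0.10 SE, adjusted p = 0.013, the SH2-domain gene Sh2d5 by 0.68 ± 0.12 SE, adjusted p = 0.019 and the water and glycerol channel gene Aqp3 by 0.67 ± 0.11 SE, adjusted p = 0.011. These 4 did not keep the call in every fit with 1 pair left out. Dhrs3 and Prph lost it without pair 2 or 3 (adjusted p between 0.061 and 0.12), and Sh2d5 and Aqp3 without pair 2, 3 or 4 (0.05 to 0.14). Without the block Dhrs3, Prph, Antxr2, Atoh8, Plekha6, Pcdh10 and Aqp3 were not called (adjusted p between 0.069 and 0.5).

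Many cholesterol and fatty acid synthesis genes rose. These enzymes and regulators are switched on by the SREBP transcription factors when membrane sterol is low, and Insig1 holds the SREBPs in the endoplasmic reticulum when sterol is plentiful. Of 32 measured genes 18 were called higher and 0 lower, against 1.21% and 2.08% of all genes. A positive difference was found in 31 of the 32, and in 6648 of all 12984 genes. The median log2 fold change was 0.28, whereas it was 0.00 over all genes. Insig1 had 82.5, 65.2, 66.3 and 53.4 with RO4929097, against 56.2, 38.8, 45.7 and 35.5 with DMSO (0.59 ± 0.05 SE, adjusted p = 0.0006), higher in each pair with groups that overlapped. Msmo1, a sterol demethylation enzyme gene, had 76.9, 84.3, 106 and 92.8 with RO4929097, against 61.2, 59.4, 64.1 and 57.2 with DMSO (0.56 ± 0.07 SE, adjusted p = 0.0027). Fdft1, squalene synthase, had 82.2, 80.2, 81.6 and 66.7 with RO4929097, against 62.6, 55.0, 62.3 and 53.3 with DMSO (0.41 ± 0.05 SE, adjusted p = 0.0032). In both Msmo1 and Fdft1 the groups did not overlap. Among the others called were Hmgcs1 (0.48), Cyp51, Idi1, Elovl6, Mvd, Sqle, Nsdhl, Dhcr7, Scd1, Srebf2 (0.26), Srebf1 and Fdps, with log2 fold changes down to 0.22. Fatty acid synthase, Fasn, differed by 0.20 (adjusted p = 0.087), and the sterol exporter Abca1 differed by -0.05 (0.69). Without the block 6 were called higher and 0 lower, and leaving out pair 1, 2, 3 or 4 gave 16, 9, 8 or 11, with 0 lower each time. Insig1 was not called without the block (adjusted p = 0.13).

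**Figure D3:**
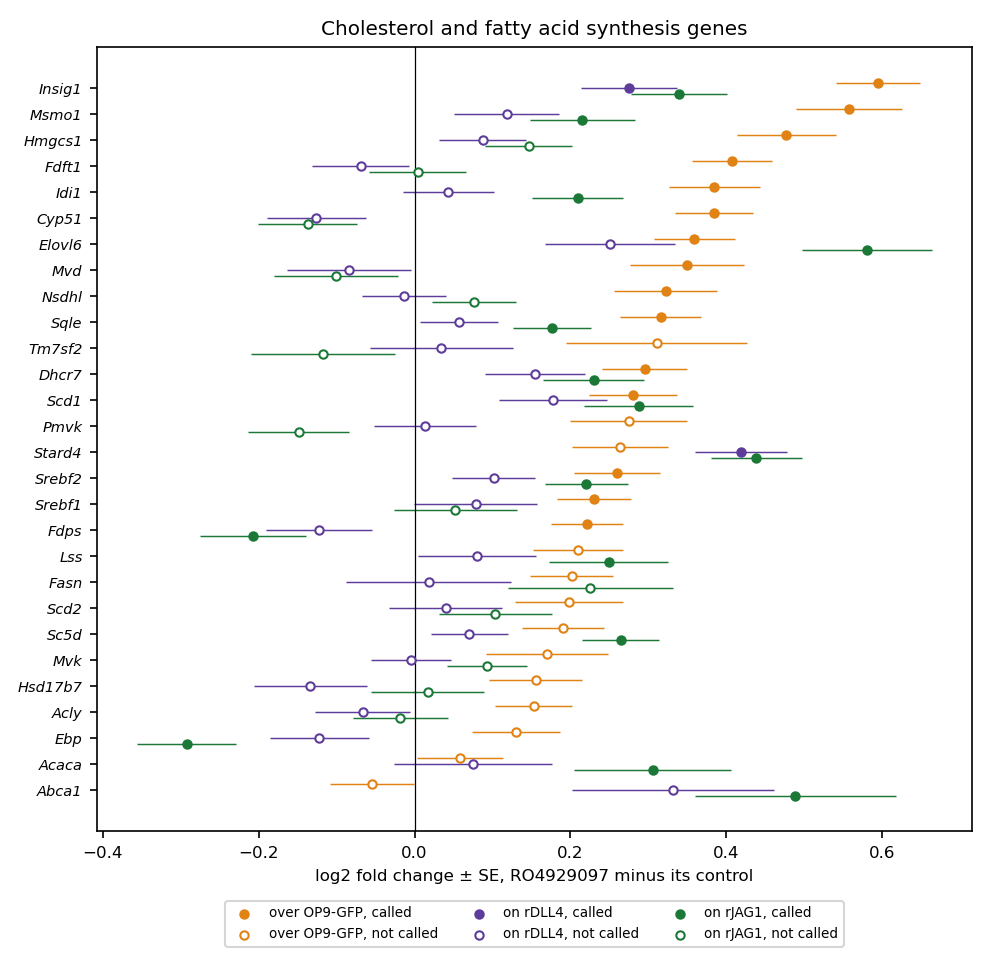
Log2 fold change ± SE, RO4929097 minus its control (x axis), of 28 of the 32 measured cholesterol and fatty acid synthesis genes over OP9-GFP (orange), on rDLL4 (purple) and on rJAG1 (green). Filled points passed the test; over OP9-GFP 15 are filled and all 15 lie right of 0.

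The sterol response element TCACNCCAC was searched on either strand of the same 250-base windows, and no promoter held a match of it that overlaps a TGGGAA match. Of the 18 genes, 11 had 15 promoters in the table and 1 of these held the element, at Hmgcs1, against 1.05% of all promoters. It is printed because it is the window in which the element was found, with the match in capitals.
Hmgcs1 (chr13:119690101-119690350, plus strand): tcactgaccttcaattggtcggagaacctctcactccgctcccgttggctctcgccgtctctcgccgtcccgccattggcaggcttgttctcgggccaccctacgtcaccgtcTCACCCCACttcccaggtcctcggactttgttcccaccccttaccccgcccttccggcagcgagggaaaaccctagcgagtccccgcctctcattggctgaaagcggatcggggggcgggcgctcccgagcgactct
The last base of the match lies 129 bases before the start. Insig1 has no match in its window.

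Several extracellular matrix genes fell. Of 35 collagen, laminin and elastic fibre genes 12 were called lower and 0 higher (median log2 fold change -0.20). Lox, which encodes the lysyl oxidase that crosslinks collagen and elastin, had 1112, 987, 1075 and 1251 with RO4929097, against 1658, 1592, 1768 and 2149.7 with DMSO (-0.69 ± 0.06 SE, adjusted p = 0.00064). Emilin2, an elastic fibre glycoprotein gene, had 4.50, 5.53, 4.05 and 4.64 with RO4929097, against 11.8, 12.7, 7.12 and 7.85 with DMSO (-0.91 ± 0.12 SE, adjusted p = 0.0037), and Fbln2, fibulin 2, had 856, 1001, 988 and 1005 with RO4929097, against 1199.7, 1256, 1284 and 1394 with DMSO (-0.42 ± 0.06 SE, adjusted p = 0.0059). In these 3 genes no library of one group lay within the range of the other. Col1a2, a chain of type I collagen, had 657, 561, 700.2 and 582 with RO4929097, against 1106, 691, 918 and 823 with DMSO (-0.49 ± 0.07 SE, adjusted p = 0.0085), lower in each pair while the groups overlapped, and it lost its call without pair 3 (adjusted p = 0.059). Among the other genes called were Col18a1 (-0.61), Loxl2 (-0.36), Col1a1 (-0.35), Nid1, Col5a1, Fbn1 and Lamb1. Col3a1 (0.00) and Hspg2 (0.05) were not called. Without the block 3 of the 35 were called, with quantile normalization 9, and without pair 1, 2, 3 or 4, 9, 6, 3 or 8.

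Of 20 metalloproteinases and inhibitors 6 fell and 0 rose (median -0.06). Mmp14, a membrane-anchored collagenase that also activates Mmp2, had 197, 189, 213 and 240.0 with RO4929097, against 303, 286, 319.9 and 385 with DMSO (-0.62 ± 0.04 SE, adjusted p = 0.00013), and Mmp2, a gelatinase, had 177, 173, 192 and 159 with RO4929097, against 268, 217, 262 and 245 with DMSO (-0.50 ± 0.06 SE, adjusted p = 0.002). Adamts2, which removes the amino propeptide of procollagen, had 10.8, 14.8, 13.5 and 13.3 with RO4929097, against 21.5, 23.7, 22.9 and 25.0 with DMSO (-0.79 ± 0.07 SE, adjusted p = 0.00066). The groups did not overlap in any of the 3, and the remaining 2 besides Adam12 were Adamts4 (-0.58, adjusted p = 0.03) and the inhibitor gene Timp3 (-0.58, 0.0058). Without the block 5 were called lower.

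TGF-beta and BMP signalling genes had 8 of 27 called lower and 0 higher (median -0.11). Tgfb2, a TGF-beta ligand gene with a known part in endocardial cushion formation, had 25.0, 25.0, 28.9 and 24.5 with RO4929097, against 43.6, 39.6, 45.1 and 43.1 with DMSO (-0.71 ± 0.06 SE, adjusted p = 0.00034). Skil, a repressor of Smad signalling and itself a TGF-beta target, had 55.1, 60.7, 76.8 and 78.1 with RO4929097, against 93.1, 80.1, 107 and 107 with DMSO (-0.51 ± 0.06 SE, adjusted p = 0.0027). With Fst above, others called were Inhbb (-0.74) and Inhba (-0.35), which encode activin and inhibin subunits, Tgfb3 (-0.40) and the receptor gene Bmpr2 (-0.23). The BMP-responsive genes Id1, Id2 and Id3 differed by 0.11, 0.19 and 0.27 and did not pass (adjusted p between 0.075 and 0.56). Without the block 2 of the 27 were called, and 6 without any 1 of the pairs.

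Of 24 actin and YAP/SRF target genes 4 fell. Ccn2, connective tissue growth factor, had 121, 174, 163 and 186 with RO4929097, against 226, 299.8, 277 and 306 with DMSO (-0.79 ± 0.05 SE, adjusted p = 5.7e-05), with no overlap, and Ankrd1 had 141, 230.2, 203 and 338 with RO4929097, against 197, 331, 292 and 411 with DMSO (-0.45 ± 0.05 SE, adjusted p = 0.0024), with overlap. Lats2, a Hippo pathway kinase gene (-0.30 ± 0.04 SE, adjusted p = 0.0076), and Ccn1 (-0.26 ± 0.05 SE, adjusted p = 0.024) were called as well. Lats2 was lost without pair 3 (adjusted p = 0.066), and Ccn1 without pair 2, 3 or 4 (0.086 to 0.11). Leaving out pair 1 gave 8 genes called lower in this list, pair 3 gave 2, and no block gave 2. Of 17 Wnt genes 3 fell: Ccn4, a Wnt-induced matricellular gene, with 211, 199, 239 and 245 with RO4929097, against 369, 351, 409 and 386 with DMSO (-0.76 ± 0.05 SE, adjusted p = 6.2e-05), the ligand gene Wnt2 (-0.69 ± 0.09 SE, adjusted p = 0.0034), and the feedback inhibitor Axin2 (-0.62 ± 0.13 SE, adjusted p = 0.03), which lost its call without any 1 of the pairs (0.061 to 0.16). Without the block Ccn4 alone of the 3 was called.

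Of 24 NF-kB, chemokine and cytokine genes 7 fell and 0 rose (median -0.19), Il33 being the largest. Ccl2, a monocyte chemokine, had 56.9, 82.2, 102 and 89.5 with RO4929097, against 107, 125, 144 and 135 with DMSO (-0.65 ± 0.06 SE, adjusted p = 0.00092), with every RO4929097 library below every DMSO library. Its neighbour Ccl7, another monocyte chemokine, changed by -0.38 ± 0.05 SE, adjusted p = 0.0044 and the neutrophil chemokine Cxcl1 by -0.58 ± 0.11 SE, adjusted p = 0.024, the second of which lost its call without pair 1, 3 or 4 (adjusted p between 0.071 and 0.097). Ptgs2 (-0.47), Lif (-0.33) and Cxcl16 (-0.33) were also called. The pathway's own subunit genes Nfkb1 (0.02) and Nfkb2 (0.18) and its inhibitor Nfkbia (-0.02) were not. Without the block only Il33 of this list was called. Leaving out pair 1, 2, 3 or 4 gave 3, 4, 3 or 5.

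In the cell-cycle lists the D cyclins moved in opposite directions. Ccnd2 had 200.4, 129, 119.6 and 154 with RO4929097, against 259, 224, 221 and 227 with DMSO (-0.65 ± 0.08 SE, adjusted p = 0.0027), whereas Ccnd1 had 90.1, 81.9, 86.5 and 104 with RO4929097, against 58.9, 62.0, 64.4 and 60.2 with DMSO (0.55 ± 0.07 SE, adjusted p = 0.0027). Neither gene's groups overlapped, and both kept the call whichever pair was left out, although Ccnd2 did not pass without the block (adjusted p = 0.061). The other 15 measured G1 cyclins and inhibitors and all 32 DNA replication and mitosis genes were not called (medians 0.03 and 0.04).

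Of 18 endothelial and endocardial genes 3 rose and 1, Flt1, fell. Klf4, a transcription factor that flow induces in endothelium, had 108, 116, 105 and 122 with RO4929097, against 90.8, 96.2, 77.6 and 85.4 with DMSO (0.37 ± 0.05 SE, adjusted p = 0.0076), with no overlap. Cd34, a sialomucin of endothelial and progenitor cells, changed by 0.38 ± 0.05 SE, adjusted p = 0.0054, and Nrg1, the neuregulin that endocardium sends to myocardium, by 0.37 ± 0.08 SE, adjusted p = 0.044. Klf4 and Cd34 lost the call without pair 3 (adjusted p = 0.077 and 0.06), Nrg1 without pair 1, 2 or 3 (0.075 to 0.2), and of the 3 Klf4 alone was called without the block. Of 22 genes of the epithelial to mesenchymal transition 3 fell, Mmp14, Mmp2 and the hyaluronan synthase gene Has2 (-0.53 ± 0.08 SE, adjusted p = 0.01), and Twist1, a transcription factor of this transition, rose (0.30 ± 0.06 SE, adjusted p = 0.02). Has2 was lost without pair 2 or 3 (0.066 and 0.094) and Twist1 without pair 1, 2 or 4 (0.06 to 0.12), and neither passed without the block. Of 24 guidance genes 4 fell, among them Slit2 (-0.34 ± 0.05 SE, adjusted p = 0.0074), Slit3 (-0.39 ± 0.06 SE, adjusted p = 0.0076) and the semaphorin receptor gene Plxnd1 (-0.43 ± 0.09 SE, adjusted p = 0.033), and Sema3c rose (0.39 ± 0.07 SE, adjusted p = 0.015). Slit2 and Slit3 were lost without pair 3 (0.07 and 0.075), Sema3c and Plxnd1 without pair 2, 3 or 4 (0.06 to 0.16), and of these 4 only Slit3 passed without the block. Plxnd1 was far higher in library 1 of both groups, at 17.6 with RO4929097 and 21.4 with DMSO, against 5.06 to 8.28 elsewhere, as Cxcl12 was.

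Of 27 genes of FGF signalling and receptor tyrosine kinase feedback 2 fell, 2 rose and 23 were not called (median -0.05). Pdgfb, a PDGF ligand gene (-0.76 ± 0.08 SE, adjusted p = 0.0016), and Dusp5, an ERK phosphatase gene (-0.40 ± 0.05 SE, adjusted p = 0.0043), fell. Spry2, an inhibitor of receptor tyrosine kinase signalling (0.29 ± 0.05 SE, adjusted p = 0.016), and the ligand gene Fgf5 (0.33 ± 0.07 SE, adjusted p = 0.03) rose. Spry2 alone of these passed without the block, and Spry2 and Fgf5 were lost without some or all of the pairs (2 or 3 for Spry2, 0.062 and 0.1, and any for Fgf5, 0.054 to 0.12). Of 24 immediate early and AP-1 genes Dusp1, a MAP kinase phosphatase gene, fell (-0.53 ± 0.07 SE, adjusted p = 0.0037) and Klf4 rose. Dusp1 was not called without the block (adjusted p = 0.21). Of 25 xenobiotic and oxidative stress genes 2 rose, Gstm1 (0.44 ± 0.08 SE, adjusted p = 0.015) and Ugt1a6a (0.47 ± 0.10 SE, adjusted p = 0.037), and 2 fell, the aryl hydrocarbon receptor gene Ahr (-0.51 ± 0.09 SE, adjusted p = 0.015) and the retinaldehyde dehydrogenase gene Aldh1a3 (-0.67 ± 0.15 SE, adjusted p = 0.047). Reads of Ugt1a6a may be shared with near-identical transcripts of its gene cluster. Each of these 4 lost its call without 2 or more of the pairs, and none passed without the block. Among 30 amino acid stress and unfolded protein genes Atf5 rose (0.42 ± 0.09 SE, adjusted p = 0.033), and among 25 hypoxia and glycolysis genes Bnip3 rose (0.46 ± 0.10 SE, adjusted p = 0.033). Atf5 was lost without pair 2, 3 or 4 (adjusted p between 0.094 and 0.17) and Bnip3 without any 1 of the pairs (0.081 to 0.16). Both were lost without the block. Over all genes 1.21% were called higher and 2.08% lower. Counts of 1 in lists of 24, 25 or 30 genes are therefore not read as results about those lists.

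No member was called of 19 p53 response genes, 27 lysosome and autophagy genes, 28 respiratory chain genes, 34 ribosomal protein genes and 25 interferon-stimulated genes. The medians were -0.02, 0.01, -0.03, -0.02 and -0.22 in that order. For the interferon list 21 of 25 differences were below 0 and 4 above, and none passed. Over all genes 6648 of 12984 differences were above 0. Leaving out pair 2 gave 3 called lower in this list and 128 over all genes.

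**Figure D4:**
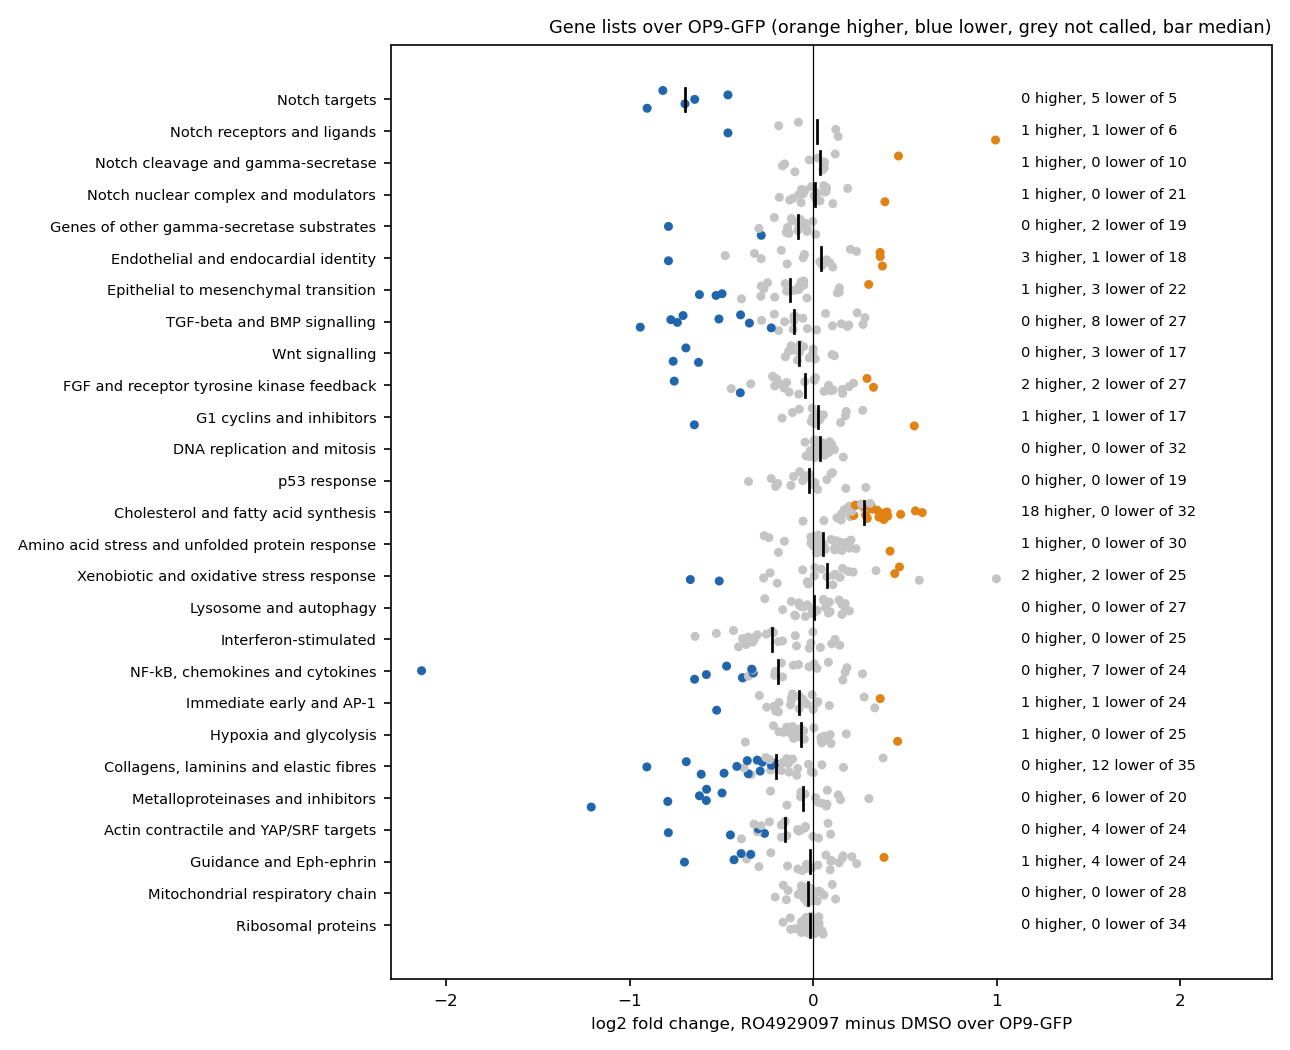
Log2 fold change, RO4929097 minus DMSO over OP9-GFP (x axis), of each measured member of 27 gene lists (rows), orange where called higher, blue where called lower and grey where not called, with the list median as a black bar and the counts at the right. The Notch targets lie left of 0, and most cholesterol and fatty acid synthesis genes lie right of it.

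The same genes could be read under the same dose of inhibitor in MEEC without OP9 cells, on recombinant ligand (n = 3 libraries per group). There MEEC on rDLL4 or rJAG1 received 20 µM RO4929097 or DMSO for 38 h, the last 14 h without serum, and each ligand with inhibitor was set against the same ligand with DMSO. Times and culture differ from the co-culture and the tables were normalized separately, so values are given side by side and nothing was tested between them. Among the recombinant ligand libraries 17.3% of 13407 genes were called on rDLL4 (8.21% higher, 9.05% lower) and 27.1% on rJAG1 (14.4% higher, 12.7% lower). Of the 270 genes lowered over OP9-GFP 264 had a value. On rDLL4 207 of them were called lower and 1 higher, and on rJAG1 203 lower and 2 higher. The 207 are 78.4% of the 264 and 17.1% of the 1214 genes lowered on rDLL4, and the 203 are 76.9% of the 264 and 11.9% of the 1702 lowered on rJAG1. Of the 157 raised genes 149 had a value. On rDLL4 90 were called higher (60.4% of the 149, 8.17% of the 1101 raised there) and 3 lower, and on rJAG1 103 were called higher (69.1% of the 149, 5.33% of the 1932 raised there) and 3 lower. Lowered genes were called lower on both ligands in 196 of 264 cases, and raised genes higher on both in 89 of 149, compared with 7.35% and 7.0% of all genes in that table. Neither ligand gave a call for 47 of the lowered and 41 of the raised genes. These fits used the replicate number as a block, although on rDLL4 the libraries with equal numbers deviated together in 1 of 3 pairs only (r = 0.401, 0.0999 and 0.0778, against a minimum of 0.1). Without the block 177 of the 264 lowered genes were called lower on rDLL4 and 181 on rJAG1, and 72 of the 149 raised genes were called higher on rDLL4 and 88 on rJAG1.

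**Figure D5:**
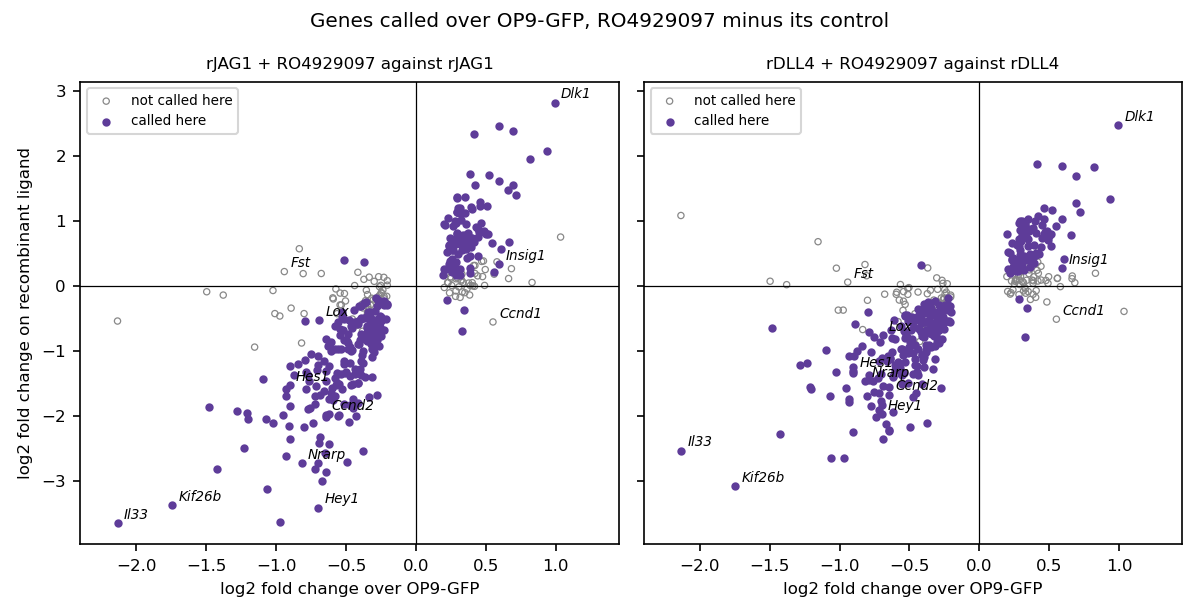
Log2 fold change over OP9-GFP (x axis) of the genes called there, against the log2 fold change of the same genes under RO4929097 on rJAG1 (left) and rDLL4 (right), each against the same ligand with DMSO (y axis). Filled points were called on that ligand; most genes moved the same way on both axes, with Ccnd1 and Fst among those that do not.

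Of 7 Notch targets measured on recombinant ligand, 7 were called lower with RO4929097 on rDLL4 and 6 on rJAG1. The log2 fold change of Hes1 was -1.30 on rDLL4 (adjusted p = 6.3e-06) and -1.52 on rJAG1 (7.1e-07), that of Nrarp -1.47 on rDLL4 (adjusted p = 1.2e-05) and -2.73 on rJAG1 (1.6e-08), that of Hey1 -1.97 on rDLL4 (adjusted p = 3.7e-07) and -3.41 on rJAG1 (8.9e-10), that of Hey2 -1.55 on rDLL4 (adjusted p = 1.1e-05) and -2.02 on rJAG1 (4.3e-07) and that of Jag1 -1.22 on rDLL4 (adjusted p = 1.3e-05) and -1.52 on rJAG1 (8e-07). Il33 changed by -2.54 on rDLL4 (adjusted p = 1.3e-08) and -3.65 on rJAG1 (2.7e-10), Kif26b by -3.08 on rDLL4 (adjusted p = 1.2e-08) and -3.38 on rJAG1 (1.7e-09) and Dlk1 by 2.48 on rDLL4 (adjusted p = 2.4e-06) and 2.83 on rJAG1 (3.1e-07). The protease genes Adam12 and Mmp14 were called lower as well, Adam12 at -1.55 on rDLL4 (adjusted p = 4.1e-05) and -1.96 on rJAG1 (2.5e-06) and Mmp14 at -1.38 on rDLL4 (adjusted p = 3.2e-08) and -1.74 on rJAG1 (1.6e-09). Other genes did not. Ccnd1 was called higher over OP9-GFP and differed by -0.51 on rDLL4 (adjusted p = 0.24) and -0.55 on rJAG1 (0.16). Fst, called lower over OP9-GFP, differed by 0.06 on rDLL4 (adjusted p = 0.88) and 0.22 on rJAG1 (0.46). Klf4 differed by -0.21 on rDLL4 (adjusted p = 0.15) and -0.04 on rJAG1 (0.79), Lats2 by -0.05 on rDLL4 (adjusted p = 0.78) and 0.07 on rJAG1 (0.62) and Ahr by -0.13 on rDLL4 (adjusted p = 0.51) and -0.11 on rJAG1 (0.51). Of the 32 cholesterol and fatty acid synthesis genes, 2 were higher and 2 lower on rDLL4 (median 0.04), and 14 higher and 3 lower on rJAG1 (median 0.13). Without the block 1 was higher and 1 lower on rDLL4, and 4 higher and 1 lower on rJAG1. With the block Insig1 was called on both ligands, at 0.27 on rDLL4 (adjusted p = 0.0066) and 0.34 on rJAG1 (0.00097), and on neither without it (adjusted p = 0.23 on rDLL4 and 0.091 on rJAG1). Fdft1 was called on neither with the block, at -0.07 on rDLL4 (adjusted p = 0.49) and 0.00 on rJAG1 (0.97).

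In another set of libraries MEEC lay for 6 h or 24 h over OP9 cells that express Jag1, Dll4 or GFP, with no inhibitor (n = 3 libraries per group). Only mean log2 differences from OP9-GFP are given, without a test, and the Jag1 and Dll4 differences at a given time share their OP9-GFP libraries. Of the 270 genes lowered by the inhibitor 267 had a value, and at 6 h 208 were higher over OP9-Jag1 (77.9%) and 213 over OP9-Dll4 (79.8%), while 49.4% and 46.2% of all genes were. Of the 157 raised genes 39 were higher over OP9-Jag1 (24.8%) and 27 over OP9-Dll4 (17.2%). At 24 h the lowered genes were higher in 206 (Jag1, 77.2%) and 212 (Dll4, 79.4%) cases and the raised genes in 52 (33.1%) and 27 (17.2%), while 51.4% and 50.8% of all genes were. The medians were small, 0.16 (Jag1) and 0.15 (Dll4) at 6 h and 0.28 and 0.25 at 24 h for lowered genes. Il33 differed by 1.2 over OP9-Jag1 and 0.79 over OP9-Dll4 at 6 h, Nrarp by 1.79 over OP9-Jag1 and 1.22 over OP9-Dll4 at 6 h and Hes1 by 0.59 over OP9-Jag1 and 0.45 over OP9-Dll4 at 6 h. Ccn2, which the inhibitor lowered, was not higher over either ligand (-0.49 over OP9-Jag1 and -0.09 over OP9-Dll4 at 6 h). Lox, lowered as well, differed by -0.11 over OP9-Jag1 and -0.12 over OP9-Dll4 at 6 h. The cholesterol and fatty acid synthesis genes had 18 of 32 positive differences over OP9-Jag1 and 6 of 32 over OP9-Dll4 at 6 h, and 27 and 3 at 24 h.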

How the data were processed

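Per the labels' protocols, RNA came from a PicoPure isolation and barcoded libraries from NEBNext Ultra. FastQC, cutadapt, RSEM and limma and the build GRCm38 are named per the submitters' processing notes, and neither versions nor the strand setting were given in the sources used here. As the authors deposited it, the data are normalized signal per Ensembl gene, 1 table per experiment, scaled for library size. Every value equals a whole number of reads (within 0.01) plus an offset, multiplied by a step that differs between libraries. The step between values gave the reads per library and the 3-read floor.

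From the deposited signal, log2(signal + 1) was fitted with limma 3.58.1 (R 4.3.3, mean-variance trend, replicate number as a block) with Benjamini-Hochberg adjustment over all genes. No minimum was applied. The fold change understates changes of low genes. Same-numbered RO4929097 and DMSO libraries over OP9-GFP deviated together across genes (r = 0.40, 0.18, 0.37 and 0.29, all above 0.1). They were paired by the numbers in the titles. Each RO4929097 library had its highest r with the DMSO library of its own number. RO4929097 library 3 with DMSO library 4 also passed 0.1 (r = 0.138). Same-numbered libraries also passed 0.1 on rJAG1 (0.29, 0.13 and 0.25) but on rDLL4 in 1 of 3 pairs only. On rDLL4, RO4929097 library 2 with DMSO library 3 (0.139) and RO4929097 library 3 with DMSO library 2 (0.104) exceeded the same-numbered values (0.0999 and 0.0778). No pair of libraries within a group agreed within sampling noise (chi-square per gene of 10.2 to 26.8), and each was counted once. This shows spread beyond counting error and does not show separate cultures. In the recombinant ligand table all 5 groups were fitted together.

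Genes named are all measured Notch targets, receptors and ligands, the 12 largest changes each way with a mean signal of at least 5 and the same sign in 4 pairs (predicted genes and ribosomal pseudogenes left out), and up to 4 called members of each of 32 lists. Counts cover whole lists, and some members are not reported here by name. Members, lists and tests were chosen with earlier results of these data known. Genes were located by an annotation of build GRCm38, and 250-base promoters come from RefSeq (GRCm38.p6). Alternatives tried are the block, pseudocounts of 0.5 and 5, minimum signals of 5 and 20, quantile normalization, library weights, no trend, and leaving out each pair.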

Additional observations from a re-analysis of the deposited data

Results flagged for a closer look

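Among 164 groups of 4 libraries (82 named genes in 2 groups), 12 held a library far from the other 3 of its group. Chance gives about 1 in 20 such groups. Library 1 stood apart for Plxnd1 in both groups (17.65 with RO4929097 and 21.39 with DMSO, the highest of each group), and RO4929097 library 1 was low for Ank1 (19.75) and Fbln2 (856.2). RO4929097 library 3 was high for CT010467.1 (18.93), Psen2 (41.27) and Tgfb2 (28.94), and RO4929097 library 4 was low for Fdft1 (66.69). DMSO library 2 was high for Rap1gap2 (8.909) and Flt1 (7.171) and low for Aplp1 (42.73), and DMSO library 4 was low for Atf5 (51.15).

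In 4 cases every pair over OP9-GFP moved one way and every pair on a recombinant ligand the other way under the same inhibitor, a difference that was not tested. Libraries were paired there by number, which on rDLL4, the ligand of 3 of the 4 cases, the deviations of the libraries bore out in 1 of 3 pairs only. Ccnd1 rose over OP9-GFP (log2 fold change 0.55) and differed by -0.51 on rDLL4 (adjusted p = 0.24) and -0.5526 on rJAG1 (0.16). Klf4 rose over OP9-GFP (0.37) and differed by -0.2051 on rDLL4 (adjusted p = 0.15). None of these differences on recombinant ligand passed. Notch2 differed by -0.08 over OP9-GFP and by 0.0833 on rDLL4, neither of which passed.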

How the results depend on the processing

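With no replicate block, 118 genes were called over OP9-GFP in place of 427, all 118 among the 427, and 24.6% of them were higher, against 36.8% with the pairing. Without the mean-variance trend 218 were called, of which 28.9% were higher. Leaving out 1 pair gave 124 to 363. The other settings gave 321 (minimum signal 20, which left 7807 genes tested) to 520 (library weights, 12984 genes tested). On rDLL4 2315 genes were called, 1430 without the replicate block, and 884 to 1657 with 1 replicate left out. On rJAG1 3634 were called, 2461 without the replicate block, and 2021 to 2894 with 1 replicate left out. No named gene that was called reversed its direction under any setting run. Of the 78 named genes called, 44 kept the call in all 4 fits without a pair and 7 in none. The block decided 43 of them, 35 being called without it, and 56 were called without the trend. The cause of these losses was not tested. The planned count-model alternatives were not run, since too few low values were present to take the signal back to reads under the required check. A gene that did not pass is not shown to be unchanged.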

Other observations

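Several genes outside the lists were among the largest falls and are named after their values were seen. Krt79, a keratin gene, had 0.0671, 0.235, 0.0695 and 0.0208 with RO4929097, against 1.73, 3.10, 1.60 and 2.00 with DMSO (adjusted p = 0.00066 by limma); 3 of the 4 RO4929097 values are below the 3-read floor. Tnfsf11, which encodes the osteoclast differentiation factor RANKL, had 0.783, 0.619, 0.904 and 1.06 with RO4929097, against 3.30, 2.75, 3.65 and 3.58 with DMSO (log2 fold change -1.23, adjusted p = 0.00064). Serpina3h, a serine protease inhibitor gene with close paralogs that may share reads, changed by -1.43 (0.00025). Ptprn, a receptor-type phosphatase gene, changed by -1.10 (0.00064), and Acan, which encodes the cartilage proteoglycan aggrecan, by -1.02 (0.0044).

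The largest fall and the largest rise over all genes were not called, and each belongs to a gene with at least 1 library under the 3-read floor. Gm28661 had 1177, 0.0213, 1860.3 and 1778 with RO4929097, against 1846, 1505, 2261 and 2593 with DMSO (log2 fold change -3.00, adjusted p = 0.35). Rps6-ps4 had 191.8, 107.7, 136.8 and 0.0208 with RO4929097, against 0.0231, 0.415, 103 and 86.4 with DMSO (1.95, adjusted p = 0.67). Reads of such copies cannot be assigned with certainty.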
